A study of Caenorhabditis elegans with 2 samples.

Results

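The 261 microRNA genes of the Caenorhabditis elegans nuclear genome were examined for binding of the zinc finger transcription factor ZTF-11. They were all nuclear genes to which the Ensembl annotation of WBcel235, release 115, gives the biotype miRNA, out of 46890 nuclear genes in all. The choice used the annotation and no measured value. RefSeq gave a symbol to all 261 and a mature RNA to 260 of them, and their median annotated length was 95 bp. The data were ChIP-seq peak lists from 2 biological replicates of mixed-stage embryos, collected as whole organisms of pooled sexes. The strain was OP236 (unc-119(ed3) III; wgIs236), in which an inserted transgene supplies ZTF-11 fused to eGFP in an unc-119 mutant background. No untagged strain or second condition was compared, and the library named as a possible control was not analysed here. Because the chromatin came from whole embryos, binding in few cells and weak binding in many cells cannot be told apart.

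MicroRNAs are short RNAs cut from hairpin precursors, and each guides an Argonaute protein to messenger RNAs that pair with it, mainly through the seed at bases 2 to 8. Many are made from their own promoters, several from 1 shared transcript, and others from the introns of protein-coding genes. ZTF-11 is the worm member of the Myt1 family, known for promoting the formation of neurons by repressing genes of other cell types.

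The mir-51 family held the 4 strongest reproducible summits beside any microRNA gene. Its members are known to act redundantly and to be needed for embryonic development. Their mature RNAs share the seed ACCCGUA, in capitals in the RefSeq sequences (WBcel235) that follow, and only the bases after the seed and the first base tell them apart.
mir-51 (chrIV:11026074-11026096, minus strand): uACCCGUAgcuccuauccauguu
mir-52 (chrIV:14034024-14034047, plus strand): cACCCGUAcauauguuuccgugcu
mir-53 (chrIV:11027653-11027676, minus strand): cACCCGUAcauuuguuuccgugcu
mir-54 (chrX:13145011-13145034, minus strand): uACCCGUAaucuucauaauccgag
mir-55 (chrX:13144842-13144864, minus strand): uACCCGUAuaaguuucugcugag
mir-56 (chrX:13144706-13144727, minus strand): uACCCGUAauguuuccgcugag
The 6 genes lie at separate places. The mir-51 and mir-53 genes are intergenic neighbours on chromosome IV, mir-52 stands alone and intergenic farther along the same chromosome, and mir-54, mir-55 and mir-56 form a cluster in an intron of F09A5.3 on the X chromosome, on the strand opposite to that gene.

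Each peak carries a signal value that the authors' caller gave it, on a scale that is not stated. It was used to order peaks within a list, rank 1 being the strongest nuclear peak, and not to compare lists. A gene was counted when a summit, the position of highest signal in a peak, lay within 1000 bp of it. The thresholded list, which the authors made from the pooled and both replicate lists by the irreproducible discovery rate, held 698 nuclear peaks with signals of 33.9 to 266.8 (median 45.76). The pooled list held 11998 nuclear peaks and started at a signal of 12.34. Each replicate list held 30000 peaks in all, and by the deposited listing includes background. Read depth is unknown, since the files give no read counts, and no interval or test can be attached to a single peak.

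The strongest summit of mir-52 lay 50 bp upstream of the gene's 5′ end. It had a signal of 125.5 in the pooled list (rank 14), 70.04 in replicate 1 (rank 13) and 62.27 in replicate 2 (rank 15). Both replicates thus placed it among their strongest peaks, and at 191 bp it was narrower than the usual 356 bp of the pooled list. Further thresholded summits lay 910 bp upstream (71.86, rank 116) and 154 bp downstream of the 5′ end, just past the gene (37.25, rank 564). The 910 bp summit ranked 101 in replicate 1 and 191 in replicate 2. The downstream summit ranked 1499 in replicate 1, while in replicate 2 the overlapping peak was the same as that of the strongest summit. The nearest protein-coding 5′ end, that of Y37A1B.7, was 9618 to 10682 bp from the 3 summits.

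The summit of mir-51 lay 82 bp upstream of its 5′ end. Its signal was 102.5 in the pooled list (rank 33), 65.19 in replicate 1 (rank 20) and 37.51 in replicate 2 (rank 89). Its neighbour mir-53, 1399 bp from that summit, had no thresholded summit within reach. It had a pooled summit of 26.92 (rank 1136), 157 bp upstream, whose ranks were 6116 in replicate 1 and 869 in replicate 2. All 3 genes of the X-linked cluster shared a summit 264 bp upstream of mir-54, with a signal of 82.94 in the pooled list (rank 79), 50.22 in replicate 1 (rank 54) and 31.74 in replicate 2 (rank 159). A weaker summit lay past the other end of the cluster, 102 bp from mir-56 and also in an intron of F09A5.3, with a signal of 42.64 (rank 415). It ranked 382 in replicate 1 and 1994 in replicate 2. F09A5.15, a microRNA gene on the strand opposite to mir-55 and overlapping it, lay within reach of the same summits and cannot be told apart from it. Thus 5 of the 6 family members had a thresholded summit, and all 6 had a pooled one.

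The DNA at these summits is shown as 101 bases of the plus strand, 5′ to 3′, centred on the summit, because the family's summits ranked highest and lay away from any protein-coding promoter. Capitals mark GAGAGA or its reverse complement TCTCTC, a repeat looked for after these sequences were seen. The search covered AAAGTT, the sequence known to be bound by Myt1 proteins of vertebrates, as well.
mir-52, strongest summit (chrIV:14033908-14034008): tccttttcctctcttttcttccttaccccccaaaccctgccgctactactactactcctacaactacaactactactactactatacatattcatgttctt
mir-51 (chrIV:11026144-11026244): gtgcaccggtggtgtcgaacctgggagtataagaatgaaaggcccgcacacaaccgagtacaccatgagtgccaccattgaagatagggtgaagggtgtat
mir-54, mir-55 and mir-56 (chrX:13145308-13145408): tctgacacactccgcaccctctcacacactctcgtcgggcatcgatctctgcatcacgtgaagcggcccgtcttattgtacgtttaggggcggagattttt
mir-52, 910 bp upstream (chrIV:14033048-14033148): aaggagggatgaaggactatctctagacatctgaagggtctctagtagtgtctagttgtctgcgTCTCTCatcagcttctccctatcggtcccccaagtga
None of these 4 windows held AAAGTT on either strand, and the last held 1 match of GAGAGA. None of the 32-bp words of these 4 peaks occurred elsewhere in the genome.

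**Figure D1:**
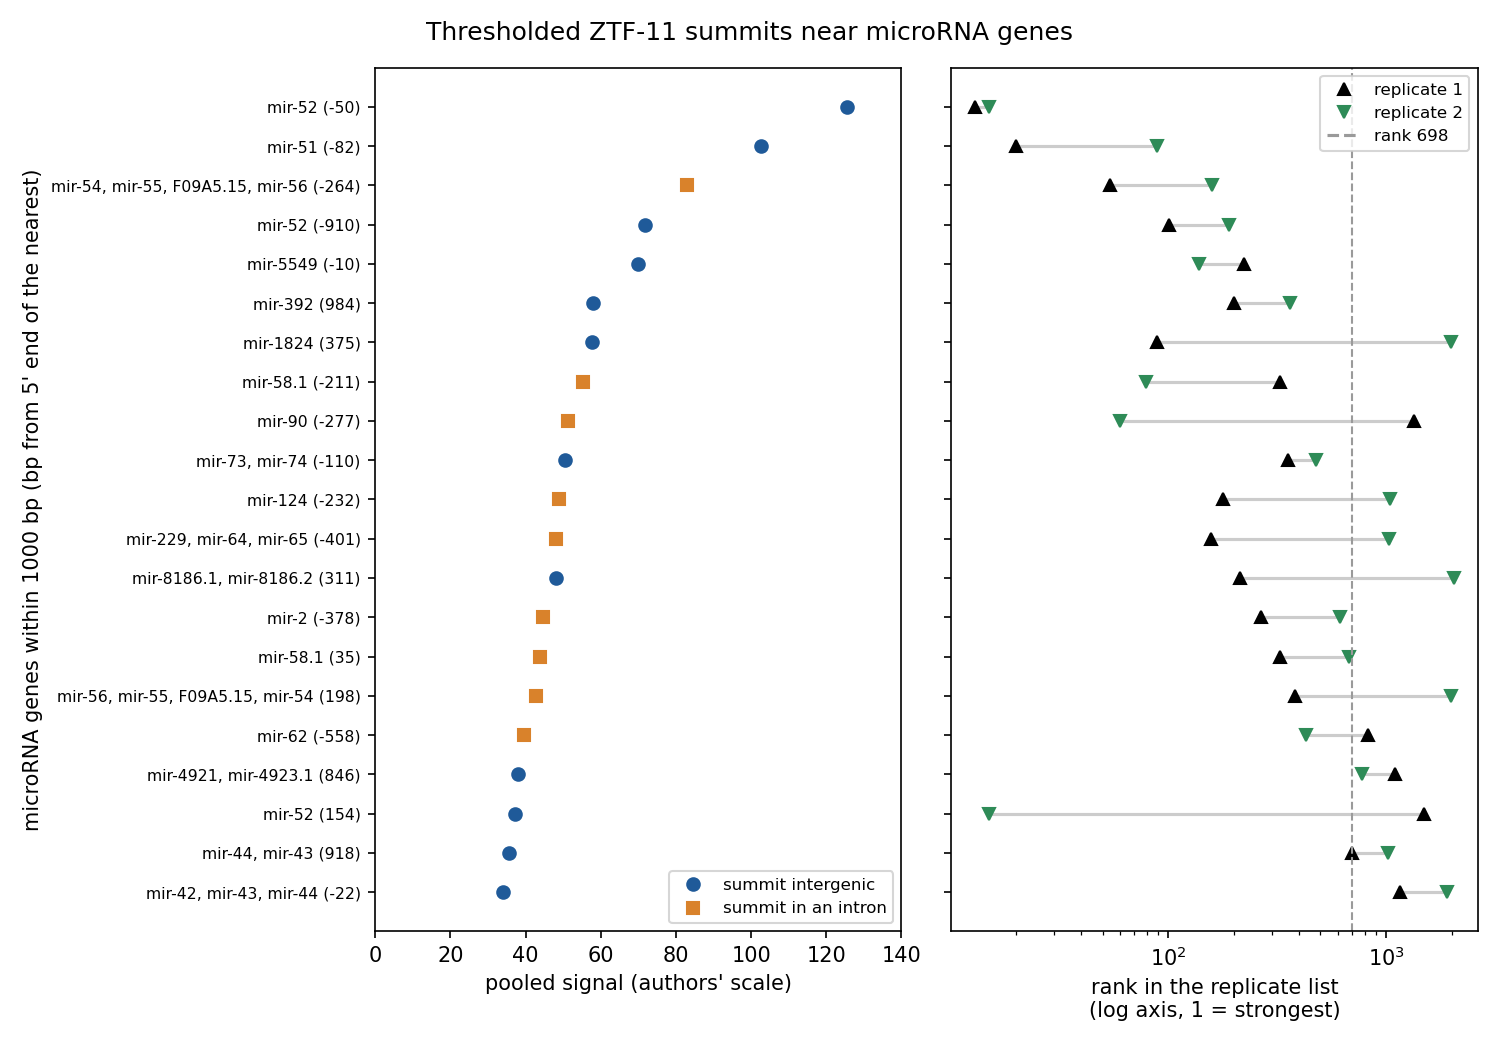
All 21 thresholded summits within 1000 bp of a microRNA gene, strongest at the top, with the position of each summit from the 5′ end of the nearest gene in brackets (bp, upstream negative). The left panel gives the pooled signal and the right panel the rank of the overlapping peak in each replicate's list on a log axis: the top mir-52 summit and the mir-51 summit lie within rank 89 in both replicates, and the ranks of the weaker summits spread across the dashed line at 698.

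A thresholded summit lay within 1000 bp of 26 of the 261 microRNA genes (9.96%), against 3.03% of all nuclear genes. In the pooled list, 87 microRNA genes (33.3%) had a summit within reach, against 30.2% of all nuclear genes. In the whole list of replicate 1 there were 152 of 261 microRNA genes, against 58% of all nuclear genes, and in that of replicate 2 the share was 54.8%, against 56.9%. The microRNA genes thus stood above the background of all genes in the thresholded list and close to it in the relaxed lists. That background includes 15363 piRNA genes, of which 0.534% had a thresholded summit within 1000 bp, and they lower its share. It also mixes genes of unlike length. Of all nuclear bases, 1.34% lay within 1000 bp of a thresholded summit and 20.7% within 1000 bp of a pooled one. Against that share of bases, the pooled 33.3% of microRNA genes was higher rather than close, though genes sharing a summit count singly in it. When each replicate list was reduced to its 698 strongest nuclear peaks, 22 microRNA genes (8.43%) had a summit within reach in replicate 1, against 2.96% of all nuclear genes. In replicate 2 there were 23 (8.81%), against 2.81% of all nuclear genes. A total of 12 genes were reached in both replicates at that depth, and all 12 had a thresholded summit: mir-2, mir-51, mir-52, mir-54, mir-55, F09A5.15, mir-56, mir-58.1, mir-73, mir-74, mir-392 and mir-5549. Of the 26 genes with a thresholded summit, mir-42, mir-4921 and mir-4923.1 were reached in neither replicate at that depth.

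Genes can share a summit, so the 26 genes are not independent. They belonged to 18 of 209 loci (8.61%), a locus being a run of microRNA genes on 1 strand with gaps of at most 10000 bp, and were reached by 21 distinct summits. Of these summits 13 lay near 1 microRNA gene and 8 near several. The overlapping pair mir-8186.1 and mir-8186.2, on opposite strands, shared a summit, as did mir-55 and F09A5.15. With such pairs counted once, a choice made after the data were seen, 24 genes remained. Among clustered genes 16 of 81 (19.8%) had a thresholded summit, and among single genes 10 of 180 (5.56%). By locus, it was 8 of 29 loci with several genes, against the same 10 of 180 with 1 gene. Loci with several genes also have more DNA within reach. The 10 include mir-8186.1, mir-8186.2 and F09A5.15, which overlap a microRNA gene on the other strand and count as single because loci are split by strand.

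The other short RNA genes differed in how close the summits lay. At 1000 bp the 9.96% of microRNA genes compared with 17.1% of 346 small nucleolar RNA genes, 13.1% of 612 tRNA genes and 6.98% of 129 small nuclear RNA genes. Protein-coding genes, which are far longer, stood at 3.97%, and the germline piRNA genes at 0.534%. At 250 bp the share was 4.6% of microRNA genes, against 13% of small nucleolar RNA genes and 10.6% of tRNA genes. At 2000 bp it was 14.6% of microRNA genes, against 19.7% and 15.2% of these 2 classes. These shares are descriptions and were not tested against each other.

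**Figure D2:**
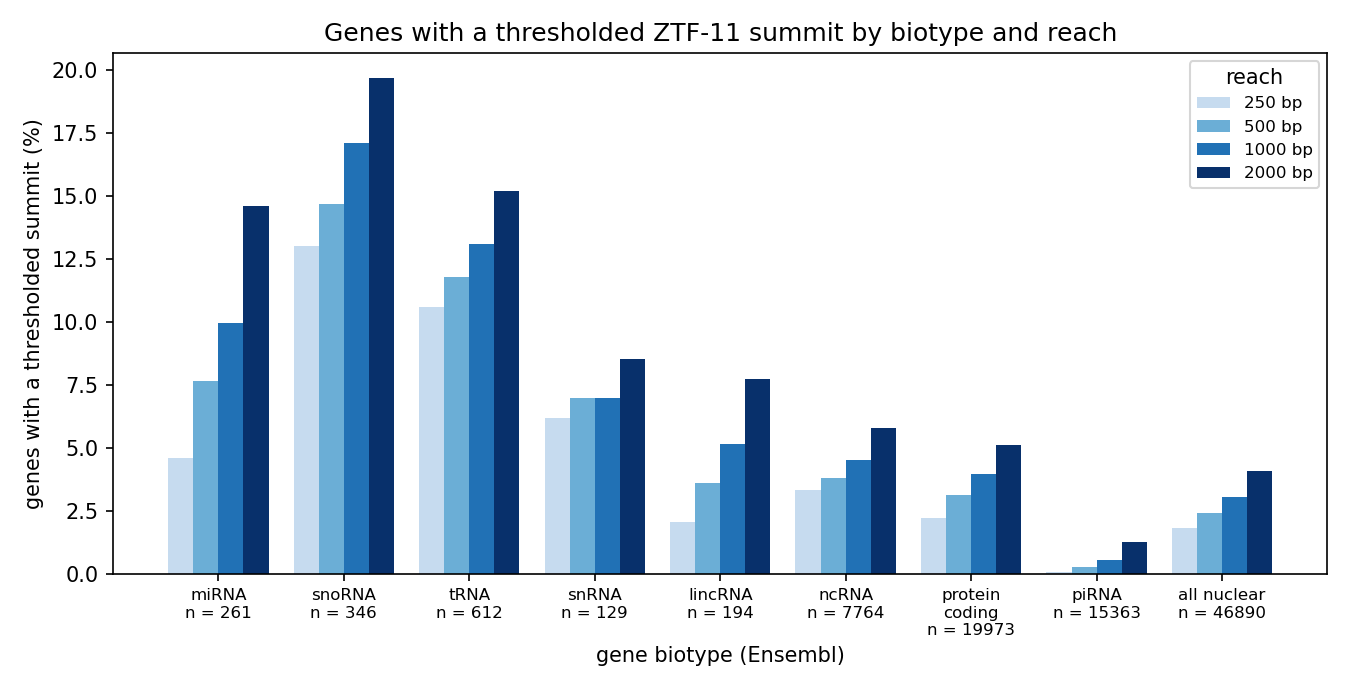
Share of genes with a thresholded ZTF-11 summit within 250, 500, 1000 or 2000 bp (bars, light to dark) for microRNA genes, 7 other gene classes and all nuclear genes, with the number of genes under each class. The microRNA bars climb with reach, through 4.6%, 7.66% and 9.96% to 14.6%, while most of the tRNA share of 15.2% at 2000 bp is already there at 250 bp (10.6%).

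Further families, listed from background knowledge, had thresholded summits. The mir-64 group is a cluster of 4 genes in an intron of gcn-1, a regulator of translation, plus mir-63 on the X chromosome. Its 5 mature RNAs share a seed. It is in capitals in the 4 shown, which include mir-63 as the member away from the cluster.
mir-229 (chrIII:2172459-2172484, plus strand): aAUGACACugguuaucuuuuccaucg
mir-64 (chrIII:2172869-2172891, plus strand): uAUGACACugaagcguuaccgaa
mir-66 (chrIII:2173124-2173146, plus strand): cAUGACACugauuagggauguga
mir-63 (chrX:17598785-17598808, minus strand): uAUGACACugaagcgaguuggaaa
The shared summit of the cluster lay 401 bp upstream of mir-229, its first gene, and had a signal of 48.22 (rank 314). It had a signal of 35.8 in replicate 1 (rank 158) and 14.9 in replicate 2 (rank 1031). The distances were 797 bp to mir-64, 951 bp to mir-65 and 1057 bp to mir-66, which is therefore just outside the reach. The mir-66 gene had a pooled summit of 18.02, and mir-63 had no summit in any of the 4 lists.

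The mir-58 family is among the most abundant in worms and is related to the bantam microRNA of Drosophila. Of its 5 members listed and found in the annotation, mir-58.1 had 2 thresholded summits, and mir-80 had pooled summits only (strongest 14.97, rank 6534). The mir-58.2, mir-81 and mir-82 genes had no pooled summit. Y73B6A.17, a gene beside mir-58.2 that Ensembl names cel-mir-58c and that was not on the list, had none in any of the 4 lists. The stronger summit of mir-58.1 lay 211 bp upstream, in the intron of Y67D8A.2 that holds the gene, with a signal of 55.22 (rank 231). It had a signal of 27.36 in replicate 1 (rank 327) and 39.62 in replicate 2 (rank 79). The other, with a signal of 43.8 (rank 389), lay 35 bp past the 5′ end and was the 1 thresholded summit inside a microRNA gene. In replicate 1 a single peak covered both. The mature RNA of mir-58.1 and the DNA around the summit within its gene are shown because the window holds the mature sequence itself, at bases 3233314 to 3233335.
mir-58.1, mature RNA with the seed in capitals (chrIV:3233314-3233335, plus strand): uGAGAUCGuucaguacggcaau
mir-58.1, summit within the gene (chrIV:3233239-3233339, plus strand): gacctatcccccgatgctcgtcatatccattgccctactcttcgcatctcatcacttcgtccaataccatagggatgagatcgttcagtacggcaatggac

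The mir-35 family is supplied by the mother and in the early embryo, and worms without it die as embryos. All 8 members share the seed CACCGGG, shown in capitals for the first gene of the main cluster and for mir-42, which lies apart.
mir-35 (chrII:11537668-11537689, plus strand): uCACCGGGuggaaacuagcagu
mir-42 (chrII:11889870-11889891, plus strand): uCACCGGGuuaacaucuacaga
The 7 genes mir-35 to mir-41 lie in an intron of Y62F5A.9, on the opposite strand. They had 4 pooled summits and no thresholded one. The strongest of the 4 lay 9 bp upstream of mir-35 with a signal of 28.71 (rank 1006), under the lowest thresholded signal of 33.9. Its overlapping peak ranked 2433 in replicate 1 and 466 in replicate 2, so the cluster was among the 698 strongest peaks of replicate 2 alone. The mir-42 gene opens a cluster with mir-43 and mir-44. The summit 22 bp upstream of it had a signal of 33.91 and rank 697, the second weakest of the thresholded list, and ranked 1155 in replicate 1 and 1905 in replicate 2. Another summit, 918 bp downstream of the 5′ end of mir-44, had a signal of 35.48 (rank 621). The related mir-45 had a pooled summit of 19.78 and mir-61 one of 13.13, and mir-247 had none.

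**Figure D3:**
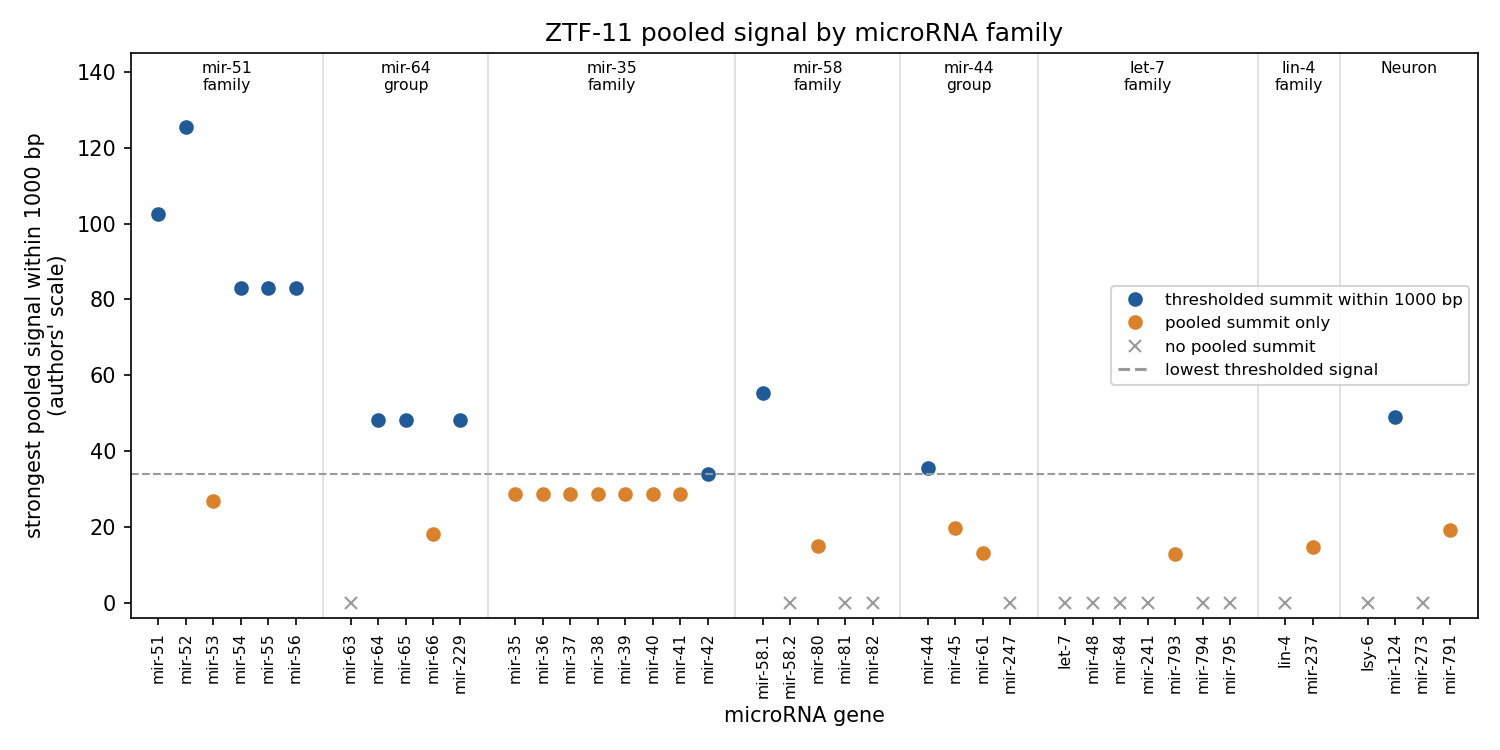
Strongest pooled signal within 1000 bp of each gene of 8 microRNA groups (circles, blue where a thresholded summit was within reach), with the lowest thresholded signal of 33.9 as a dashed line and crosses at 0 for genes without a pooled summit. The mir-51 family reaches 125.5 and 5 of its 6 genes lie above the line, the 7 clustered mir-35 genes lie together at 28.71, and most of the let-7 family has no pooled summit.

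The let-7 and lin-4 genes, which time the larval stages, had no pooled or thresholded summit within reach. The let-7 RNA is known for the late larval switch to adult cells, and lin-4 for the early larval one, and their mature sequences are shown as the standard examples of the class, with the seed in capitals.
let-7 (chrX:14744234-14744255, minus strand): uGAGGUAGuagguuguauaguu
lin-4 (chrII:5902269-5902289, plus strand): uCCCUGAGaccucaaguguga
For let-7 the annotation gives a span of 1732 bp rather than the hairpin alone. No summit of any of the 4 lists lay within 1000 bp of it. The nearest pooled summit was 1930 bp away and the nearest thresholded one 8385 bp. For lin-4, in an intron of F59G1.4, replicate 1 had a peak of rank 10015 and replicate 2 one of rank 21941 within reach. The nearest pooled summit was 9912 bp away and the nearest thresholded one 57415 bp. Of the 7 genes of the let-7 family, mir-793 alone had a pooled summit (12.76, rank 10921), close to the lower end of the pooled list. The lin-4 relative mir-237 had one of 14.7 (rank 6926), 582 bp downstream of its 5′ end.

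Of the 4 microRNA genes listed for neurons, mir-124 had a thresholded summit. The mir-124 RNA is known from sensory neurons in worms and is conserved across animals. Its summit lay 232 bp upstream, in the intron of trpa-1 that holds the gene; trpa-1 encodes an ion channel. The signal was 48.86 in the pooled list (rank 304), 34.74 in replicate 1 (rank 179) and 14.82 in replicate 2 (rank 1046), so replicate 1 placed it higher. Its mature RNA is shown with the seed in capitals.
mir-124 (chrIV:11871798-11871818, plus strand): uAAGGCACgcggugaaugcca
Another neuronal gene, mir-791, known from carbon dioxide sensing cells, had a pooled summit of 19.05 (rank 2965). The lsy-6 gene, which sets the left and right identity of a pair of taste neurons, and mir-273 had none. The muscle microRNA gene mir-1 had a pooled summit of 15.02 (rank 6459). Of 7 other genes known from development, mir-57, mir-67, mir-71 and mir-246 had pooled summits of 12.43 to 14.52, and mir-34, mir-83 and mir-786 had none.

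Of the remaining genes with a thresholded summit, several had that summit in the promoter window of a protein-coding gene. The mir-5549 gene lies between the divergent genes rfc-4, a subunit of the replication clamp loader, and eef-1A.1, translation elongation factor 1-alpha. Its summit, 10 bp upstream, was also 158 bp from the 5′ end of rfc-4, and had a signal of 69.82 (rank 129), with rank 223 in replicate 1 and 139 in replicate 2. The mir-392 summit, 984 bp downstream of its 5′ end, was 234 bp from that of bra-1 and had a signal of 58.06 (rank 211), with rank 200 in replicate 1 and 361 in replicate 2. The summit of mir-8186.1 and mir-8186.2 lay in the promoter window of gmeb-1 (48, rank 316), and that of mir-1824 was 40 bp from the 5′ end of Y87G2A.18 (57.58, rank 218). The 2 replicates ranked these 2 summits far apart, at 213 and 89 in replicate 1 and at 2044 and 1992 in replicate 2. The mir-62 gene is a mirtron, whose hairpin ends are set by splicing, in ugt-50, a glucuronosyltransferase gene. Its summit was 258 bp from the 5′ end of ugt-50 (39.62, rank 486), with rank 830 in replicate 1 and 430 in replicate 2.

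The mir-73 and mir-74 genes, an intergenic cluster with mir-75, shared a summit 110 bp upstream of mir-73 with a signal of 50.42 (rank 286), ranked 355 in replicate 1 and 479 in replicate 2. The mir-90 summit lay 277 bp upstream, in an intron of K01F9.2, with a signal of 51.21 (rank 279). Its ranks were 1345 in replicate 1 and 60 in replicate 2, so replicate 2 alone placed it within the strongest 698. The mir-2 summit, in an intron of ppfr-1, lay 378 bp upstream (44.57, rank 370), with rank 267 in replicate 1 and 616 in replicate 2. The mir-4921 and mir-4923.1 genes belong to a cluster of 11 genes on the X chromosome, and the only pooled or thresholded summit within their reach (37.92, rank 536) lay inside a tRNA gene, 787 bp from mir-4921.

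Across the 21 summits the pooled signal had a median of 48.86, against 45.76 for all 698 thresholded summits, and 13 of the 21 were at or above the median of all. A protein-coding promoter window, from 1000 bp upstream to 200 bp downstream of a transcript's 5′ end, held 5 of the 21 (23.8%), against 56% of all thresholded summits. Introns held 9 (42.9%), against 26.1%, intergenic DNA held 12 (57.1%), against 67.9%, and exons held none, against 42 of 698. Another non-coding gene lay within 250 bp of 13 of the 21 summits. For 11 of these it was of the broad ncRNA class alone. The exceptions were the tRNA gene above and a small nucleolar RNA gene, ZK930.15, 245 bp from the summit downstream of mir-44. The share of all 698 thresholded summits with such a gene was not computed, so the 13 of 21 cannot be set against a background. Both replicates had an overlapping peak at each of the 21, as at all 698. That peak was within rank 698 in replicate 1 for 16 of the 21 (76.2%), against 74.4% of all thresholded summits. In replicate 2 it was for 13 (61.9%), against 71.2%, and in both for 10 (47.6%), against 52.4%.

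By place, 13 of 97 intronic microRNA genes (13.4%) had a thresholded summit, as did 13 of 152 intergenic ones (8.55%) and none of 12 that touch a protein-coding exon. Clustered genes share summits. With each locus counted once, it was 8 of 79 wholly intronic loci (10.1%) and 9 of 116 wholly intergenic ones (7.76%). Loci are split by strand, so F09A5.15 still counted apart from the mir-54 to mir-56 cluster, and mir-8186.1 apart from mir-8186.2. By gene, the pooled list gave 44.3% of intronic, 27.6% of intergenic and 2 of the exonic genes. By locus, it gave 29 of 79 wholly intronic and 33 of 116 wholly intergenic ones, a smaller gap. Among intronic genes the share was 13.4% on the strand of the host (9 of 67) and 13.3% on the opposite strand (4 of 30). The tRNA, small nucleolar and small nuclear RNA genes as 1 group had the other order, with 12.6% of intronic and 15.4% of intergenic genes. The intergenic count depended on 1 library. Among the 698 strongest peaks of replicate 2, without replicate 1, it was 6 intergenic and 17 intronic genes, and among those of replicate 1 it was 10 and 11. The 17 included the 7 clustered genes mir-35 to mir-41, all reached by the same replicate 2 peak (rank 466). On the X chromosome 10 of 74 microRNA genes (13.5%) had a thresholded summit, against 5.18% of all nuclear genes there. On the autosomes it was 16 of 187 (8.56%), against 2.72%. On chromosome V it was none of 28, against 2.15% of all nuclear genes there, a share at which 0 of 28 says little. The 10 genes on the X chromosome were reached by 6 distinct summits. In the pooled list the order was the other way, with 17 of 74 microRNA genes on the X chromosome (23%) and 70 of 187 on the autosomes (37.4%). The pooled shares of all nuclear genes on the X chromosome and the autosomes were not computed, so this order cannot be set against a background. The 70 also include the 7 clustered genes mir-35 to mir-41, which share their pooled summits.

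For 18 of the 26 genes (69.2%) the strongest thresholded summit was upstream of the gene, for 8 downstream and for none inside. For 80 tRNA genes with one, it was upstream for 32 (40%), inside the gene for 33 and downstream for 15. For 59 small nucleolar RNA genes, it was upstream for 52 (88.1%), inside for 3 and downstream for 4. With microRNA loci counted once, the strongest thresholded summit was upstream for 10 of 18, downstream for 6 and within the locus for 2. In the pooled list the strongest summit was upstream for 56 of 87 microRNA genes (64.4%). By locus, the strongest pooled summit was upstream for 35 of 66 (53%), downstream for 28 and within the locus for 3. The nearest thresholded summit was at a median distance of 251.5 bp. It lay within 100 bp of 5 genes, within 250 bp of 12 and within 500 bp of 20. The farthest counted was mir-65 at 951 bp, and the first genes beyond the reach were mir-66 at 1057 bp and mir-4923.2 at 1127 bp.

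**Figure D4:**
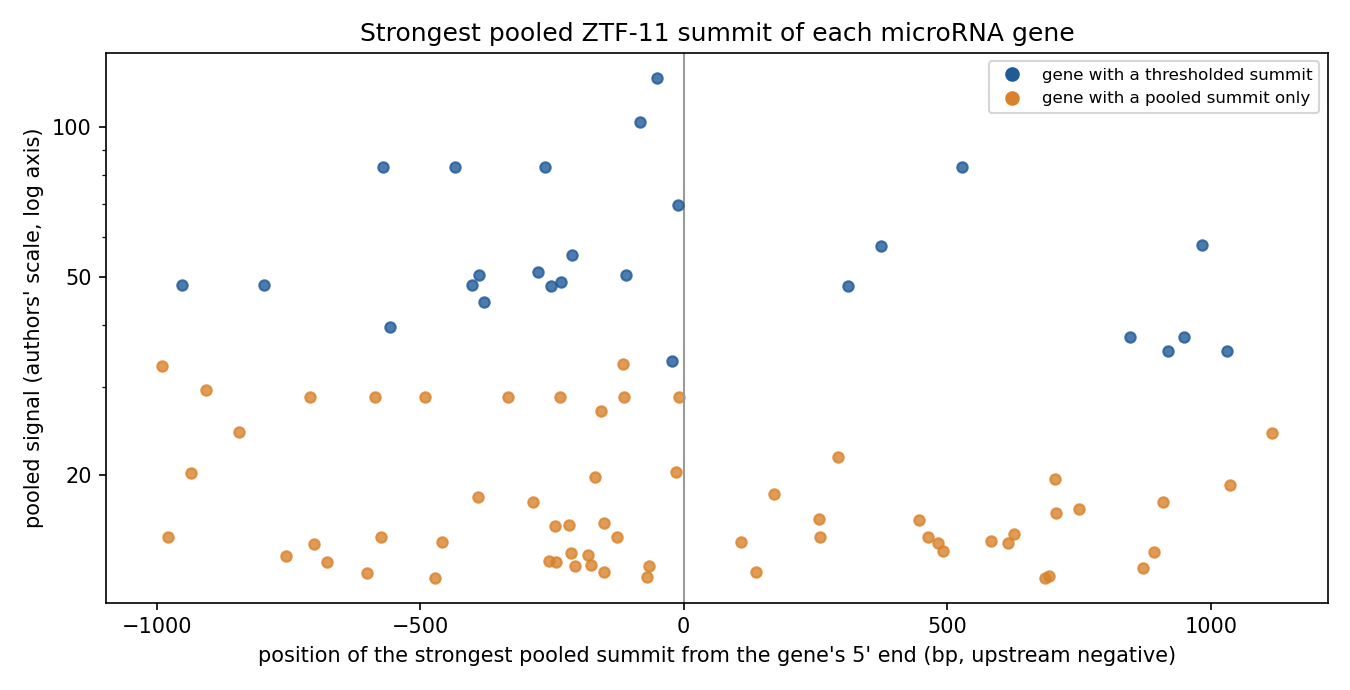
Strongest pooled summit of each of the 87 microRNA genes that have one within 1000 bp, by its position from the gene's 5′ end (bp, upstream negative) and its pooled signal on a log axis, blue where the gene has a thresholded summit. The 56 genes with an upstream summit lie on the left, among them those with the highest signals (125.5 and 102.5) close to the 5′ end.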

How the data were processed

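ChIP-seq peak lists on ce11 (the same assembly as WBcel235) were used. Per the deposited file listings, the authors called each replicate list on 1 replicate's alignments with a control and the pooled list on both. Each peak's signal value is the authors' own, on an unstated scale. Library sizes were 150 to 350 bp, per the labels. The aligner, caller, versions, cutoff and depth were not given in the sources used here. Lists on ce10 were not used.

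Summits of nuclear peaks were set against the annotation with Python 3.11.15 and NumPy 2.4.6, and drawn with matplotlib 3.10.9. The counting was checked on 200 planted summits, all of which were recovered. All 698 thresholded nuclear peaks were also the strongest pooled ones, and each overlapped a peak of both replicates. For the 21 summits, the replicate value is that of the overlapping peak with the nearest summit. Mature RNAs and summit DNA were read from the RefSeq assembly WBcel235. With 1 group there is no contrast, and all counts are descriptions. Genes named are those with a thresholded summit, let-7, lin-4, listed families and the strongest pooled ones. The members, lists and families were chosen with earlier results of these data known. Some sequences are not reported here.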

Additional observations from a re-analysis of the deposited data

How the results depend on the processing

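Of 49 recalculated counts, 37 stayed within 1.5 times of the reported value. A reach of 250 bp gave 12 microRNA genes (4.6%, against 1.81% of all nuclear genes), 9 loci and 10 summits, with 7 intergenic and 5 intronic genes, and 44 genes in the pooled list. At 2000 bp there were 38 genes (14.6%, against 4.09%), the intergenic count was 22 and the pooled count 132. With signals at or above the median, 13 summits and 8 intergenic genes were left, and 19 genes in all (7.28%, against 1.55% of all nuclear genes). With the 1396 strongest pooled peaks there were 23 intronic genes, and 37 in all (14.2%, against 5.42%). Leaving out a replicate gave 22 to 23 genes, 14 to 16 loci, 16 summits, 6 to 10 intergenic genes, 11 to 17 intronic genes and 85 to 92 pooled genes, the lowest intergenic count being without replicate 1. Distances to the peak edge gave 28 genes, and clusters joined across strands gave 16 loci. The cause of these shifts was not tested. No paired analysis was possible because the study has 1 group.

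With 2 replicates, an unstated signal scale and no read counts, absence of a summit says only that none was listed within reach. Genes sharing a summit were counted singly and are not independent.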

Other observations

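Among the 61 microRNA genes with a pooled but no thresholded summit, the highest pooled signal was 33.43, for mir-8192 in an intron of the folliculin gene flcn-1 (rank 728). It was followed by 33.07 for mir-87 in kup-1 (rank 754) and 29.67 for mir-8190 in hmr-1, the gene of the classical cadherin (rank 947). All 3 lay under the lowest thresholded signal of 33.9. The peaks overlapping these summits ranked 3290 in replicate 1 and 484 in replicate 2 for mir-8192, 1025 and 2888 for mir-87, and 14107 and 257 for mir-8190. In all, 9 genes were reached by the 698 strongest peaks of replicate 2 alone and had no thresholded summit, the mir-35 to mir-41 cluster, mir-8190 and mir-8192, and 1 gene by those of replicate 1 alone, mir-354, whose summit lies in the promoter windows of ekl-4 and rps-20. No summit of any list was within reach of 66 of the 261 genes.

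A split by the number in the name, made after the data were seen, follows roughly the order in which the genes were found. Among the 132 genes numbered under 1000, 19 (14.4%) had a thresholded summit, and among the 122 with higher numbers 6 (4.92%). In the pooled list the shares were 43.2% and 23.8%. Genes sharing a summit count singly here, among them mir-54 to mir-56 and, in the pooled list, mir-35 to mir-41. Shares by locus were not computed for this split. Among 7 genes without such a number, let-7 and lin-4 included, F09A5.15 alone had a summit in either list.

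Within 50 bp of the summit, on either strand, AAAGTT occurred at 2 of the 21 microRNA summits (9.52%), against 4.15% of all 698 thresholded summits. Its core AAGTT, which includes those matches, occurred at 3 (14.3%), against 8.31%, and TTTGAA, an element of cell cycle promoters, at 4 (19%), against 13%. GAGAGA, searched for after the data were seen, occurred at 8 (38.1%), against 28.9%. Of the 2 windows with AAAGTT, the mir-4921 one lies over a tRNA gene, and 15.1% of the 32-bp words of its peak occurred elsewhere in the genome, the highest share among the 21. The other, 918 bp downstream of the 5′ end of mir-44, is shown with AAAGTT and GAGAGA in capitals.
mir-44 (chrII:11890891-11890991, plus strand): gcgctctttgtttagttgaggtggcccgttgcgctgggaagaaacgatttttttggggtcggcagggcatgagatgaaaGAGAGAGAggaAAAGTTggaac

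Outside the families above, 3 seeds were shared by several genes of which more than 1 had a thresholded summit, leaving out the overlapping pair mir-8186.1 and mir-8186.2. The seed GAUAUGU is on mir-90, mir-62 and mir-50, of which mir-90 and mir-62 had thresholded summits and mir-50 a pooled one (13.73). The seed GGCAAGA is on 6 genes, of which mir-73 and mir-74, sharing 1 summit, had a thresholded one and the others had no pooled one. Another seed is on mir-2, mir-43, mir-250 and mir-797, at separate loci, of which mir-2 and mir-43 had thresholded summits and mir-250 a pooled one.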
